A study of Homo sapiens with 7 samples.

Results

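AP-1 is a family of transcription factors that work as pairs of proteins, held together by a leucine zipper next to a basic DNA-binding region. FOS proteins (FOS, FOSB, FOSL1, FOSL2) cannot pair with themselves and bind DNA with a JUN protein (JUN, JUNB, JUND), while ATF3, BATF3 and MAFF are related zipper proteins that join or oppose such pairs. Several of the genes are immediate early genes, switched on within minutes of growth factors, stress or mechanical load by MAP kinases, and AP-1 is known for driving proteases and cytokines in epithelial and senescent cells. These 10 genes were chosen by name, and all 10 were among the 14535 genes in the table.

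Gene expression was measured in A549 cells, a human lung adenocarcinoma epithelial line, in 7 libraries. The 4 stretch libraries (replicates 4 to 7) came from cells deformed cyclically at 15% elongation and 15 cycles per min over 24 h, and 3 doxorubicin libraries (replicates 1 to 3) came from cells given 100 nM of this DNA-damaging drug over the same 24 h. In both groups β-galactosidase, an enzyme stained as a marker of senescence, was assessed 6 days later, and RNA came from the sorted positive cells. No untreated cells were analysed here, so each difference is between the treatments, and the labels do not say whether replicates were separate cultures.

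Depth and make-up differed between the groups. Stretch libraries held 5636494 to 7419798 counts and doxorubicin libraries 2611766 to 4644650. A single gene, EIF4A2, took 1.67% to 2.87% of stretch counts and 10.8% to 30.6% of doxorubicin counts. Doxorubicin libraries 1 and 2 stood apart from the rest, with TMM scaling factors of 0.730 and 0.443 where the other 5 libraries had 1.14 to 1.33, and doxorubicin library 3 correlated with stretch library 4 at 0.941 (log-CPM across genes), above the 0.754 to 0.884 among doxorubicin libraries. Of 9 markers listed for A549, 8 were in the table, 6 of these exceeded 1 CPM (counts scaled to the size of the library) in every library, and the 8 summed to 3083 to 3753 CPM in stretch and 3416 to 6212 CPM in doxorubicin libraries. NKX2-1, the lung lineage factor of the list, was not analysed here. Of 7 fibroblast markers 5 were in the table, summing to 14.8 to 16.4 CPM in stretch and 17.4 to 45.0 CPM in doxorubicin libraries, and 4 of 6 leukocyte markers, of which CD68 and LYZ are not leukocyte-restricted, summed to 58.8 to 61.8 CPM in stretch and 100.9 to 143 CPM in doxorubicin libraries. PTPRC and CD3E, which define leukocytes and T cells, were not analysed here. The endothelial marker CDH5 stood at 0 to 0.963 CPM in stretch and at 0 in doxorubicin libraries. The part of other cell types in the results was not tested.

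AP-1 genes carry in their own promoters short elements that AP-1 and related ATF and CREB proteins bind, so the promoter stretches that hold them are shown first. RefSeq windows (GRCh38.p14, 250 bases before to 50 after a start given by RefSeq) were found for 8 of the 10 members, all but FOSL1 and BATF3. Distances are counted from these starts, which can differ from the ends of the GENCODE gene coordinates given further below. By those coordinates the stretches shown for FOSL2, JUN and MAFF lie within the gene. Each line below gives a stretch of the window 5′ to 3′ on the gene's own strand, with the matched motif in capitals. The motifs searched on both strands were TGACTCA (the classical AP-1 element), TGACGTCA (the cAMP response element), TGACATCA (the variant known from JUN), TGACGT (the first bases of the cAMP response element, counted also where they lie within it) and the CArG box of SRF.

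FOS (chr14:75278744-75278789, plus strand): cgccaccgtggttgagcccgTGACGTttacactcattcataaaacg
FOSB (chr19:45467916-45467961, plus strand): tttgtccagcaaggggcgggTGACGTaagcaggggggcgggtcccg
FOSL2 (chr2:28392772-28392888, plus strand): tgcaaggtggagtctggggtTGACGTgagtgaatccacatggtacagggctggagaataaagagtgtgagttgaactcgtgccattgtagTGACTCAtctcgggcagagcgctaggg
JUN (chr1:58784087-58784134, minus strand): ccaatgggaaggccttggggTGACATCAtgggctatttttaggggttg
JUND (chr19:18281684-18281842, minus strand): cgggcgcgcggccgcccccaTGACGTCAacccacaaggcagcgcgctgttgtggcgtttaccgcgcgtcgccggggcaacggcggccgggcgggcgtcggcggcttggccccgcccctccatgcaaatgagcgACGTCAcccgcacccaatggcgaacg
ATF3 (chr1:212565264-212565311, plus strand): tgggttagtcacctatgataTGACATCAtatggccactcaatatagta
MAFF (chr22:38201920-38201967, plus strand): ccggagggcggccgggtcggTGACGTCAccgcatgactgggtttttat

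FOS and FOSB both held TGACGT, at 64 to 59 and at 60 to 55 bases before the start. FOSL2 held the same core 66 to 61 bases before the start, and TGACTCA at bases 5 to 11 after it. JUN and ATF3 shared TGACATCA, at 67 to 60 and at 123 to 116 bases before the start. MAFF held TGACGTCA 54 to 47 bases before the start, and the second windows of ATF3 and MAFF, at other starts, held none. JUND held TGACGTCA 200 to 193 bases before its start and a further TGACGT on the opposite strand, which reads ACGTCA in the line shown, and JUNB held none of these motifs in its window. Over 35116 windows of the same length, TGACGT was found in 7.98%, TGACTCA in 4.95%, TGACATCA in 2.61%, TGACGTCA in 1.85% and the CArG box of SRF, which no member window held, in 1.29%. A match describes the letters and does not show binding.

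FOS was measured at higher and FOSL2 at lower levels in every stretch library than in any doxorubicin library, and JUNB and JUND overlapped between the groups. FOSB, FOSL1, ATF3 and BATF3 also overlapped, with an SD above the difference of the means in 1 or both groups, and JUN and MAFF had too few counts to test. In these bulk samples fewer cells of a type and less RNA per cell cannot be told apart. Of the 10 members, 8 passed the filter on low counts and were tested, and none of the 8 differed between stretch and doxorubicin past an adjusted p of 0.05 (edgeR's quasi-likelihood test, Benjamini-Hochberg over 11230 genes). Over all tested genes 2.32% passed, 0.356% higher and 1.97% lower in stretch. At an unadjusted p under 0.05 the members called were FOS and FOSL2, 2 of 8, where 23.2% of all tested genes stood. DESeq2 called 1 member, FOSL2, among 11.6% of genes, limma-voom called 0 among 1.66%, and limma-voom with library quality weights called 5 (FOS, FOSL1, FOSL2, ATF3 and BATF3) among 47.2% of genes. The median log2 fold change (stretch minus doxorubicin throughout) of the tested members was -0.34, beside 0.02 for all tested genes. This median depended on single libraries and on the scaling: it was -1.11 without stretch library 4, -0.16 without doxorubicin library 1, -0.08 against doxorubicin library 3 alone, -1.15 with quality weights and 0.43 with library totals alone. Group ranges were apart for FOS, with stretch above, and for FOSL2, with stretch below, where 11.5% and 9.88% of tested genes had ranges apart in those directions, so 2 of 8 members was close to the 21.4% found over all genes. No tested member passed with RLE size factors, upper-quartile factors, library totals alone or EIF4A2 left out, where 2.26%, 1.84%, 0.116% and 2.42% of genes did, nor with no filter or a mean of at least 10 CPM, where 1.96% and 1.91% did. When stretch library 4, 5, 6 or 7 was left out, no member passed, among 0.359%, 0.146%, 0.109% and 0.109% of genes. No member passed without doxorubicin library 1 (0.197%) or 2 (2.47%), and FOS and FOSL2 passed without doxorubicin library 3, as 32.2% of all genes did.

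**Figure D1:**
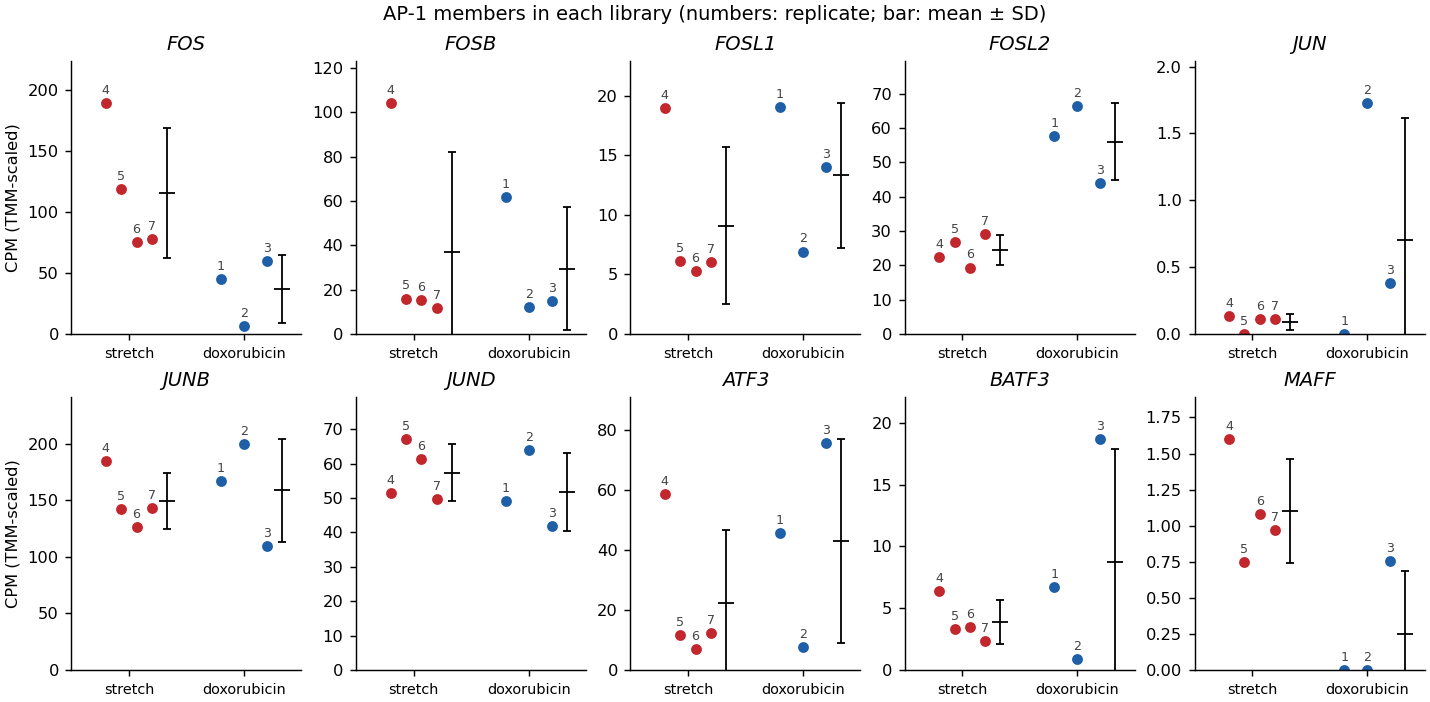
CPM of each of the 10 members (y axes from 0, a scale for each gene) in the 4 stretch libraries (red, left) and the 3 doxorubicin libraries (blue, right), with replicate numbers beside the points and the mean ± SD in black (error bars end at 0 where they would pass below it). FOS lies between 75.5 and 189.6 CPM in stretch, above all doxorubicin libraries, FOSL2 lies between 19.4 and 29.2 CPM in stretch, below all of them, and FOSB, FOSL1 and ATF3 have 1 high stretch library, replicate 4.

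FOS, the founding member and a short-lived immediate early protein (chromosome 14, 75278774 to 75282230, plus strand), was measured at higher levels in stretch. It stood at 189.6, 118, 75.5 and 77.6 CPM in stretch libraries 4, 5, 6 and 7, against 44.9, 6.05 and 59.7 CPM in doxorubicin libraries 1, 2 and 3. Every stretch library lay above every doxorubicin library, and doxorubicin library 2, the shallowest, was lowest with 7 counts. The means were 115 ± 53.3 CPM in stretch and 36.9 ± 27.7 CPM in doxorubicin (SD, n = 4 and n = 3), a log2 fold change of 1.60 (SE 0.61), which did not pass (edgeR adjusted p = 0.151). Without doxorubicin library 2 it was 1.14 and without stretch library 4 it was 1.25 (edgeR adjusted p = 0.163 and 0.293). Against doxorubicin library 3 alone, where 0.802% of genes passed, it was 0.96 (edgeR adjusted p = 0.361). Without doxorubicin library 3 FOS was past the threshold at 2.12 (edgeR adjusted p = 0.0259).

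FOSB (chromosome 19, 45467995 to 45475179, plus strand), which like FOS is induced early, did not separate the groups. It stood at 104, 15.9, 15.2 and 11.6 CPM in stretch libraries 4 to 7, against 61.6, 12.1 and 14.7 CPM in doxorubicin libraries 1, 2 and 3. One library of each group was high, stretch 4 and doxorubicin 1, and the other 5 lay between 11.6 and 15.9 CPM. Its log2 fold change of 0.30 (SE 0.83, edgeR adjusted p = 0.853) became -1.06 without stretch library 4 and 1.44 without doxorubicin library 1. FOSB overlaps ERCC1 on the opposite strand, and use of strand in the counting is not given in the sources used here. Whether the overlap reaches the amplicons, or reads of ERCC1 were counted for FOSB, was not tested.

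FOSL2, a FOS-related protein with longer-lasting expression (chromosome 2, 28392448 to 28417312, plus strand), was the member with the lowest p and was measured at lower levels in stretch. It stood at 22.4, 26.7, 19.4 and 29.2 CPM in stretch libraries 4 to 7, against 57.6, 66.6 and 44.0 CPM in doxorubicin libraries 1 to 3. No stretch library reached the lowest doxorubicin library, and neither group had a library far from its others. The means were 24.4 ± 4.38 CPM in stretch and 56.1 ± 11.3 CPM in doxorubicin (SD, n = 4 and n = 3), 2.28-fold lower in stretch. Its log2 fold change of -1.19 (SE 0.29) missed the threshold in edgeR (adjusted p = 0.0566) and passed it in DESeq2 (-1.20, adjusted p = 0.00370). The log2 fold change of FOSL2 was -0.84 against doxorubicin library 3 alone (edgeR adjusted p = 0.205) and -1.31 without that library (edgeR adjusted p = 0.00510). With library totals in place of TMM factors it was -0.38, in a setting that moved the median of all genes to 0.71. FOSL2 overlaps FLJ31356 on the opposite strand and AC104695.3 on the same strand, neither of them in the table.

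FOSL1, the other FOS-related protein, which is known as a read-out of sustained ERK signalling (chromosome 11, 65892049 to 65900573, minus strand), stood at 19.0, 6.10, 5.30 and 6.02 CPM in stretch libraries 4 to 7, against 19.1, 6.92 and 14.0 CPM in doxorubicin libraries 1 to 3. The groups overlapped through stretch library 4, and the other 3 stretch libraries were below every doxorubicin library. The lowest of these, doxorubicin library 2, had 8 counts, so this order rests on few counts. Its log2 fold change was -0.60 (SE 0.52, edgeR adjusted p = 0.506), and -1.24 without stretch library 4 (edgeR adjusted p = 0.150).

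The JUN proteins, the obligate partners of FOS proteins, did not pass the test where they could be measured, and JUN itself had too few counts to measure. JUND, the most constitutive of the JUN genes (chromosome 19, 18279760 to 18281622, minus strand), stood at 51.4, 67.2, 61.2 and 49.6 CPM in stretch, against 49.2, 64.0 and 42.0 CPM in doxorubicin. JUNB (chromosome 19, 12791496 to 12793315, plus strand) stood at 185, 143, 126 and 143 CPM in stretch, against 167, 199.7 and 109.8 CPM in doxorubicin. For both genes the groups overlapped, with log2 fold changes of 0.16 (SE 0.29) for JUND and -0.09 (SE 0.31) for JUNB (edgeR adjusted p = 0.765 and 0.890). The sign of JUNB changed under 4 of 18 alternatives, and JUNB overlaps HOOK2 on the opposite strand. JUN (chromosome 1, 58780788 to 58784327, minus strand) had 1, 0, 1 and 1 counts in stretch libraries 4 to 7, against 0, 2 and 2 counts in doxorubicin libraries 1 to 3. All 7 values were under 3 counts, the level taken as detection, which corresponds to 0.321 to 0.401 CPM in stretch and 0.567 to 2.59 CPM in doxorubicin libraries, and no difference in JUN could be measured. A549 cells are known to express JUN, and whether the panel or the assignment of reads to JUN failed could not be examined from the counts, so these values do not show that JUN was absent.

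ATF3 and BATF3, zipper proteins that pair with JUN proteins, had lower mean levels in stretch with wide spread. ATF3, a stress-induced gene (chromosome 1, 212565334 to 212620777, plus strand), stood at 58.6, 11.8, 7.03 and 12.3 CPM in stretch libraries 4 to 7, against 45.7, 7.78 and 75.6 CPM in doxorubicin libraries 1 to 3. Stretch library 4 was close to doxorubicin libraries 1 and 3, and doxorubicin library 2, with 9 counts, was among the low stretch libraries. The log2 fold change of ATF3 was -0.98 (SE 0.77, edgeR adjusted p = 0.455), and it was -2.09 without stretch library 4 and -0.30 without doxorubicin library 3.

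BATF3, which is best known from dendritic cells, stood at 6.41, 3.32, 3.46 and 2.37 CPM in stretch libraries 4 to 7, against 6.75, 0.865 and 18.7 CPM in doxorubicin libraries 1 to 3, where library 2 had a single count. Its log2 fold change of -1.33 (SE 0.63, edgeR adjusted p = 0.235) depended on doxorubicin library 3, since it was -0.17 without that library and -2.26 with it as the only doxorubicin library (edgeR adjusted p = 0.0558). BATF3 lies on the same chromosome as ATF3, at 212686418 to 212699985 on the minus strand.

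MAFF, a small MAF protein that lacks an activation domain and is induced by stress (chromosome 22, 38200767 to 38216511, plus strand), was at the edge of detection and did not pass the filter. It had 12, 7, 10 and 9 counts in stretch libraries 4 to 7, against 0, 0 and 4 counts in doxorubicin libraries 1 to 3. In CPM this was 0.749 to 1.60 in stretch and 0 to 0.756 in doxorubicin, so the ranges overlapped through stretch library 5 and doxorubicin library 3. The limits that a count of 0 allows were 1.19 and 2.59 CPM in doxorubicin libraries 1 and 2, above most or all stretch values, and a difference was not detectable there. MAFF also overlaps PLA2G6 on the opposite strand.

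**Figure D2:**
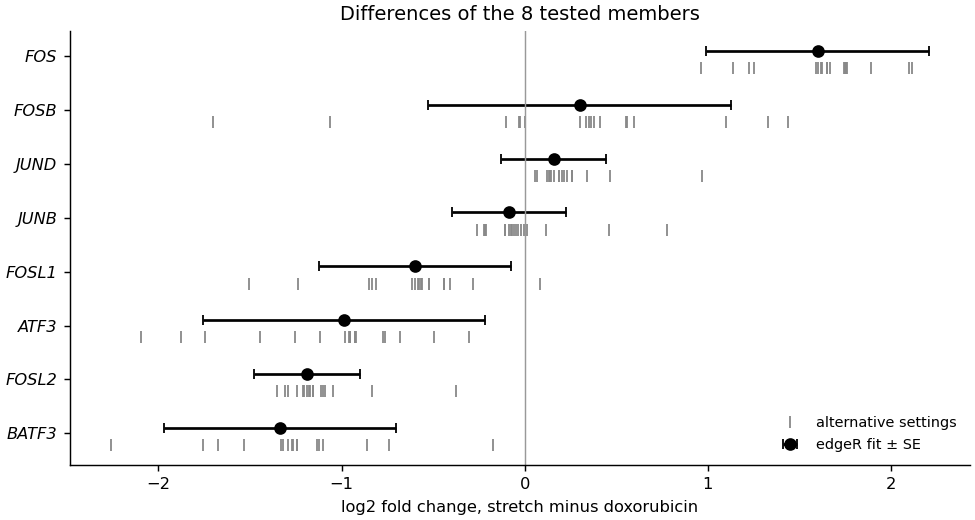
Log2 fold change (x axis, stretch minus doxorubicin, positive values higher in stretch) of the 8 tested members with its standard error (black), and the values under the alternative settings (grey ticks). FOS keeps to the right of 0 and FOSL2, ATF3 and BATF3 to the left under all the settings drawn, while ticks of FOSB, FOSL1 and JUNB fall on both sides.

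Since a difference in library scaling moves all members together, their counts were also set against JUND in the same library, a ratio that no scaling can change. FOSL2 had 0.436, 0.398, 0.316 and 0.588 counts per JUND count in stretch libraries 4 to 7, against 1.17, 1.04 and 1.05 in doxorubicin libraries 1 to 3. The groups were apart, as 15.8% of tested genes were in this direction by the same ratio, and 3.88% in the opposite one. The difference in mean log2 ratio was -1.35 and lay between -1.51 and -1.21 when any 1 library was left out. FOS had 3.69, 1.76, 1.23 and 1.56 counts per JUND count in stretch, against 0.911, 0.0946 and 1.42 in doxorubicin, and here the groups overlapped through stretch library 6 and doxorubicin library 3. The ratio of JUNB to JUND ran from 2.06 to 3.60 in stretch and from 2.62 to 3.40 in doxorubicin libraries.

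**Figure D3:**
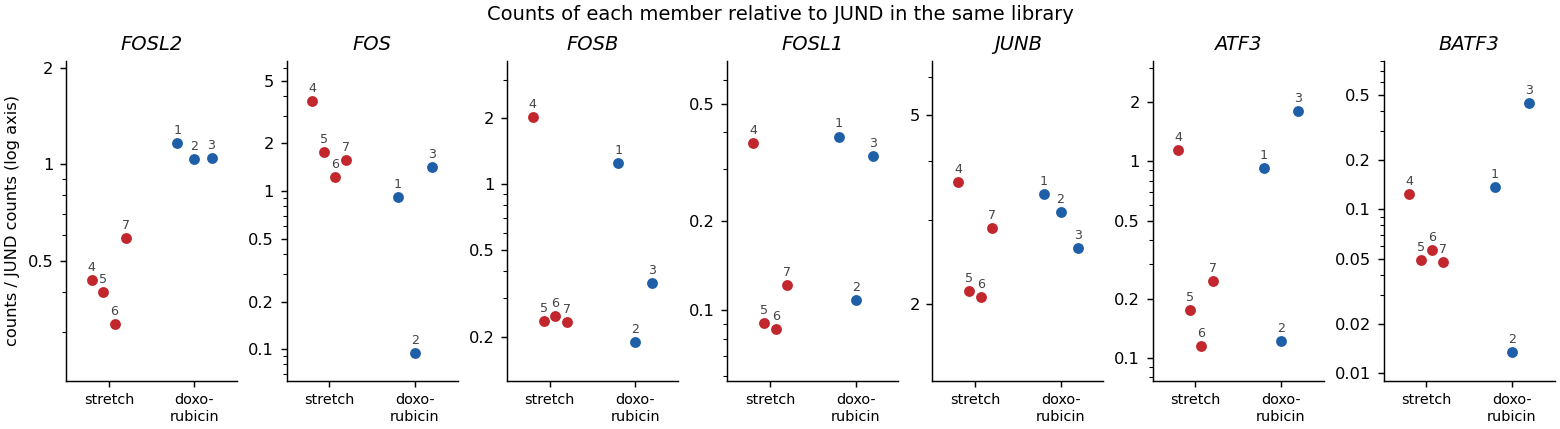
Counts of 7 members divided by the JUND counts of the same library (log y axis, a scale for each gene) in the stretch (red, left) and doxorubicin (blue, right) libraries, with replicate numbers. FOSL2 is the member whose groups lie apart, at 0.316 to 0.588 in stretch and 1.04 to 1.17 in doxorubicin.

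Within the stretch group, library 4 was high for most members. It held the highest of the 4 stretch values for 6 of the 8 tested members, the exceptions being FOSL2 and JUND, where 33.4% of all tested genes were highest in that library. Its level over the mean of the other stretch libraries was 7.31-fold for FOSB, 5.66-fold for ATF3, 3.26-fold for FOSL1, 2.10-fold for FOS and for BATF3, and 1.35-fold for JUNB. FOSL2 and JUND were at 0.894 and 0.866 of that mean. The same count was 14 of 20 for other immediate early genes, 13 of 24 for AP-1 target genes, 6 of 12 for feedback genes and 1 of 4 around SRF. It was 5 of 25 for the MAP kinase cascade, 2 of 11 for other zipper partners and 0 of 11 for cofactors. This library had the lowest total count of the stretch group, and the part of depth in the pattern was not tested. The count over members was made after the values of FOSB, ATF3 and FOSL1 were seen.

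The 5 genes whose log-CPM followed FOSL2 most closely over the 7 libraries, among 7500 genes with a mean of at least 10 CPM, were CIRH1A, FBXL18, CHST3, MAP1B and HELZ2. Their Pearson correlations with FOSL2 ran from 0.980 to 0.992, and the choice by likeness to FOSL2 favours genes whose ranges lie apart in the same direction, as they did for all 5, beside 9.88% of all tested genes. The 7 points share the split into treatments and the library scaling.

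The genes that switch MAP kinases off were the part of the upstream pathway with members past the threshold. DUSP8 and DUSP10, phosphatases that act on the JNK and p38 kinases upstream of JUN and ATF proteins, fell in stretch relative to doxorubicin. They were 2 of 12 tested feedback genes, beside 1.97% of all genes lower in stretch, and none was called higher. DUSP10 stood at 18.4, 21.8, 23.6 and 17.4 CPM in stretch, against 97.3, 113 and 34.4 CPM in doxorubicin (log2 fold change -1.99, SE 0.39, edgeR adjusted p = 0.0303). DUSP8 stood at 2.67, 3.0, 1.62 and 1.72 CPM in stretch, against 25.4, 79.5 and 6.81 CPM in doxorubicin (log2 fold change -3.98, SE 0.70, edgeR adjusted p = 0.0215). In both genes doxorubicin library 2 was highest and library 3 nearest to stretch. DUSP5, a nuclear phosphatase of ERK, and DUSP16, a phosphatase of JNK, stood at -1.49 and -1.68 on the log2 scale and missed the threshold (edgeR adjusted p = 0.0611 and 0.0679), and both passed without doxorubicin library 3, as 32.2% of all genes did (edgeR adjusted p = 0.00150 and 0.00121). The median of the list was -0.82, and -0.27 against doxorubicin library 3 alone, where DUSP8 and DUSP10 were at -1.58 and -0.74 (edgeR adjusted p = 0.156 and 0.245). Neither passed without doxorubicin library 1 (edgeR adjusted p = 0.0849 and 0.146) or without any single stretch library (edgeR adjusted p from 0.0667 to 0.151), and DUSP8 was at -2.78 without doxorubicin library 2. Of the 12 feedback genes 0 passed with library totals alone (0.116% of all genes), 0 in limma-voom (1.66%) and 4 in DESeq2 (11.6%). With library totals alone the median of the feedback list was 0.03, and that of all genes 0.71.

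Kinases and SRF cofactors upstream of AP-1 had no member past the threshold in edgeR. Of 25 tested genes of the MAP kinase cascade, DESeq2 called 1, beside 11.6% of all genes, and 5 stood at an unadjusted p under 0.05, beside 23.2% of all genes. MAP2K7, a kinase that activates JNK, had a log2 fold change of -1.52, with 19.1 to 34.6 CPM in stretch and 29.1 to 147 CPM in doxorubicin (edgeR adjusted p = 0.103). Its value was -0.66 without doxorubicin library 2 and -0.13 against doxorubicin library 3 alone. MAP3K11, MAPK7 (ERK5) and MAP3K1, further kinases of these cascades, were at -0.84, -1.06 and -0.75 (edgeR adjusted p from 0.134 to 0.156). Without doxorubicin library 2, MAPK7 was at -0.61 and MAP3K11 at -0.56. Of 4 tested genes around SRF, MKL1, the actin-sensing cofactor now called MRTFA, had the lowest p, with 52.4 to 68.9 CPM in stretch and 87.0 to 214 CPM in doxorubicin (log2 fold change -1.41, edgeR adjusted p = 0.0566). ELK3, MKL2 and ELK4 were at -0.58, -0.37 and -0.35, and without doxorubicin library 2 ELK3 was at -0.28 and ELK4 at 0.18, while MKL2 was at -0.16 without doxorubicin library 1 and -0.59 without doxorubicin library 3. By DESeq2 1 of these 4 passed, beside 11.6% of all genes, and 1 stood at an unadjusted p under 0.05, beside 23.2%. Without doxorubicin library 3, where 32.2% of all genes passed, MAP2K7, MAP3K11, MAPK7 and MKL1 were past the threshold (edgeR adjusted p from 0.00123 to 0.0180).

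Other zipper partners and cofactors also had 0 calls in edgeR, with 1 of 11 and 2 of 11 tested genes at an unadjusted p under 0.05, beside 23.2% of all genes, and 0 called in each list by DESeq2, beside 11.6%. ATF2, a partner of JUN, had 27.8 to 32.4 CPM in stretch and 26.5 to 114 CPM in doxorubicin, with a log2 fold change of -1.05 that became 0.18 against doxorubicin library 3 alone. JDP2, a repressor that pairs with JUN, was at -1.39, NFE2L2 (NRF2) at -0.50 and MAFG, a small MAF that pairs with NRF2, at 0.77. Among cofactors, MEN1 (menin, which binds JUND) was at -1.16, SIRT1, a deacetylase, at 0.85, COPS5 (JAB1, a coactivator of JUN) at 1.10 and HDAC3 at -0.62. Without doxorubicin library 2, ATF2 was at -0.30, JDP2 at -0.51, MAFG at 0.45, MEN1 at -0.25 and HDAC3 at -0.26. COPS5 was at 2.26 without doxorubicin library 3 (edgeR adjusted p = 0.00219) and at 0.18 against that library alone. ATF2, JDP2, MEN1 and HDAC3 were also past the threshold without doxorubicin library 3, where 32.2% of all genes passed (edgeR adjusted p from 0.00843 to 0.0344). MAFG was at 1.35 without that library and 0.46 without stretch library 4.

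Other immediate early genes had no common direction between the groups. Of 20 tested, edgeR called none, beside 2.32% of all genes, and DESeq2 called 1, beside 11.6%. At an unadjusted p under 0.05 stood 3, beside 23.2% of all genes, and the median was 0.01. KLF10, an early gene of TGF-beta signalling, stood at 50.5, 50.4, 49.5 and 67.3 CPM in stretch, against 29.4, 12.1 and 22.9 CPM in doxorubicin (log2 fold change 1.31, edgeR adjusted p = 0.0657). NR4A1, an orphan nuclear receptor, had group ranges on the same side as FOS, with 61.5 to 80.1 CPM in stretch and 1.73 to 53.9 CPM in doxorubicin (log2 fold change 1.32, edgeR adjusted p = 0.245). IER3 and CTGF were at -1.49 and -0.94, and IER3 was at -0.80 without doxorubicin library 2 and at 0.33 against doxorubicin library 3 alone. CTGF was past the threshold without doxorubicin library 2, at -1.28 (edgeR adjusted p = 0.0393), where 2.47% of all genes passed. NR4A1 was at 2.30 without doxorubicin library 3 (edgeR adjusted p = 0.00928) and at 0.82 without doxorubicin library 2. Against doxorubicin library 3 alone NR4A1 was at 0.38. Its 1.73 CPM in doxorubicin library 2 came from 2 counts, under the level taken as detection. KLF10 and IER3 were also past the threshold without doxorubicin library 3, where 32.2% of all genes passed (edgeR adjusted p = 0.0158 and 0.00306).

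Genes known as AP-1 targets were mostly lower in stretch than in doxorubicin. Of 24 tested, 23 had a log2 fold change below 0, as 5482 of 11230 tested genes did, and 5 fell in stretch relative to doxorubicin past the threshold, beside 1.97% of all genes, with a median of -1.37, and -0.59 against doxorubicin library 3 alone. The 5 were CCL2, a monocyte chemokine, KRT80, a keratin, the cytokines IL6 and IL11, and the gelatinase MMP2, with log2 fold changes of -2.54, -1.95, -3.17, -3.01 and -3.63 (edgeR adjusted p from 0.00279 to 0.0341). CCL2 stood at 51.9, 49.6, 34.2 and 45.2 CPM in stretch, against 251, 276 and 260.1 CPM in doxorubicin, and the groups lay far apart. IL6 ranged from 0.541 to 2.27 CPM in stretch, against 9.53, 9.51 and 14.4 CPM in doxorubicin. Several of these genes also respond to factors other than AP-1. CCL2 passed without any single library, while the count of list genes past the threshold ran from 1 without stretch library 5, 6 or 7 to 16 without doxorubicin library 3 (32.2% of all genes), and was 2 (CCL2 and KRT80) without doxorubicin library 1 and 3 (with IL6) without stretch library 4. MMP2 had 98.6 CPM in doxorubicin library 2 and 8.32 CPM in library 3. The value of MMP2, -3.63, became -2.09 when doxorubicin library 2 was left out and -1.32 against doxorubicin library 3 alone. Of the 24 target genes 0 passed with library totals alone (0.116% of all genes), 4 in limma-voom (1.66%) and 13 in DESeq2 (11.6%). With library totals alone the median of the target list was -0.46, and that of all genes 0.71.

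**Figure D4:**
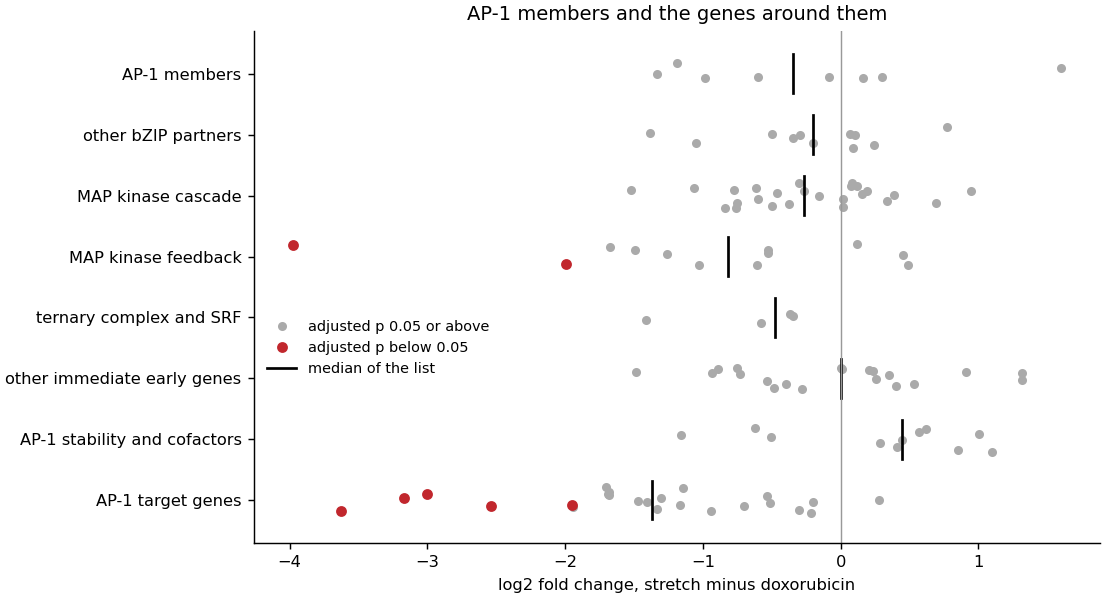
Log2 fold change (x axis, stretch minus doxorubicin) of every tested gene in the AP-1 family and in 7 lists of genes around it, with genes past an adjusted p of 0.05 in red and the median of each list as a black line. The red points are DUSP8, DUSP10 and 5 AP-1 target genes, all below 0, and the medians are -0.34 for the AP-1 members, -0.82 for MAP kinase feedback and -1.37 for AP-1 target genes.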

How the data were processed

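Per the labels' protocols, Trizol RNA went into an Ion AmpliSeq human transcriptome kit, a PCR panel with primers per gene and no molecular identifiers, so counting intervals and limits cover counting error only. The authors deposited whole-number estimated counts per gene, read as rounded and with no scaling across samples. The tools named, per the submitters' processing notes, are fastp 0.20.1 and Salmon 1.9, and the build is GRCh38. The annotation release is not given in the sources used here. Rows of the same symbol were summed and a family name was left out, leaving 14535 genes, each with a count in at least 3 libraries before summing. Gene coordinates are from GENCODE release 29 (GRCh38), and those of the promoter stretches are from the RefSeq windows.

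Stretch was tested against doxorubicin with edgeR 4.0.16 (R 4.3.3): filterByExpr, TMM factors (0.443 to 1.33), glmQLFit with robust estimation and glmQLFTest, with the SE as the absolute log2 fold change over the square root of F. CPM was taken over TMM-scaled sizes, with a prior count of 2 on the log scale. DESeq2 1.42.0, limma 3.58.1, other scalings, other filters and each library left out were alternatives. No 2 libraries agreed within sampling noise (chi-square per degree of freedom at least 7.07 in 21 pairs). P-values reflect the spread of these libraries alone, and that spread may be technical. Levels of different genes are not compared, since each is read from its own amplicon.

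The members and lists were chosen with earlier results of these data known, and no set test was made. Named are all members and, of each other list, the 4 genes with the lowest p. MMP2 was named after its value was seen. Genes of the lists without a row in the table, SRF, ELK1 and MMP1 among them, were not analysed here.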

Additional observations from a re-analysis of the deposited data

Results flagged for a closer look

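Among the members and the genes named from each list, 5 had 1 stretch library far from the others. Over all tested genes of the lists 10 met the same criterion, MAP2K1 and KLF6 among them, both high in stretch library 4. Stretch library 4 stood apart in FOSB, at 104 CPM where the other stretch libraries had 11.6 to 15.9 CPM, in FOSL1, at 19.0 CPM where the others had 5.30 to 6.10 CPM, and in ATF3, at 58.6 CPM where the others had 7.03 to 12.3 CPM. These were 3 of 8 tested members, and by the same criterion 3.49% of all tested genes were high in stretch library 4 and 7.56% had any stretch library apart. For normally spread values, chance gives about 1 in 20 for any stretch library apart at either end. It gives less for 1 given library at the high end. NFE2L2 was high in stretch library 6, at 62.5 CPM where the others had 44.7 to 45.5 CPM. KLF10 was high in stretch library 7, at 67.3 CPM where the others had 49.5 to 50.5 CPM.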

How the results depend on the processing

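No paired analysis was possible because the groups share no replicate number. The number of genes past the threshold, 261, became 13 with library totals alone, 143 with a mean of at least 10 CPM, 1302 with DESeq2, 5303 with limma-voom and library quality weights, and 99 against doxorubicin library 3 alone. It ran from 12 to 3736 when 1 library was left out. The number of AP-1 members past the threshold, 0, was 1 with DESeq2, 5 with quality weights, and 0 to 2 when 1 library was left out. Apart from ratios to JUND with a library left out, FOS, FOSL2, ATF3, BATF3 and JUND kept their direction in all alternatives that gave them a value. Their log2 fold changes were 0.96 to 2.12, -1.35 to -0.38, -2.09 to -0.30, -2.26 to -0.17 and 0.06 to 0.97. Relative to JUND, BATF3 went from -0.74 to 0.28 without doxorubicin library 3. FOSB was at -1.70 with quality weights and -0.10 relative to JUND, and ran from -1.06 to 1.44 over the left-out libraries. JUNB was at 0.78 with library totals alone, 0.0140 with no filter and 0.46 with doxorubicin library 3 alone, and ran from -0.26 to 0.12 over the left-out libraries, where ELK4 ran from -0.60 to 0.18. With library totals alone, which moved the median of all genes to 0.71, FOSL1 was at 0.0857, NFE2L2 at 0.32, MAP3K11 at 0.0191, MAP3K1 at 0.0014, ELK3 at 0.28, MKL2 at 0.45, ELK4 at 0.60 and HDAC3 at 0.29. With doxorubicin library 3 alone, ATF2 was at 0.18, JDP2 at 0.22, MKL2 at 0.24, ELK4 at 0.46, IER3 at 0.33, MEN1 at 0.14 and HDAC3 at 0.0702. The cause of these changes was not tested. Of 136 list medians under alternatives 35 moved by more than the spread between libraries. The 49 ratios to JUND with a library left out cannot be judged this way. Leaving out 1 library cannot move a group mean past the SD of that group. The log2 ratio difference of FOS went from 1.89 to 0.72 without doxorubicin library 2, and that of ATF3 from -1.12 to -2.23. For FOSB it went from -0.10 to 0.65 without doxorubicin library 1. DESeq2 gave no p for FOSB. With as few as 1 count for BATF3 in doxorubicin library 2, depth limits the low members.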
